A study of Mus musculus with 4 samples.

Results

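The genes described here make cholesterol and fatty acids or control and balance that synthesis. They were chosen by name, 34 genes in all, with earlier results of these data known. Each of the 34 was found among the 16338 genes of an RNA-seq experiment on mouse CD8 T cells. By role they are 18 enzymes of sterol synthesis, 5 genes of sterol regulation and transport, 9 enzymes of fatty acid synthesis, elongation and desaturation, and 2 efflux transporters. Of the 18, 7 belong to the mevalonate branch and 11 make squalene or lead from it to cholesterol. The T cells carried a T cell receptor called TRP1high or TRP1low, and what high and low refer to is not stated. Cultured for 48 h with B cells loaded with the M9 or the K8 peptide, they were then separated from the B cells by flow cytometric sorting. The series as a whole asks how the binding of tumour peptides to MHC class I bears on the response of CD8 T cells. The groups are thus TRP1high with M9, TRP1high with K8, TRP1low with M9 and TRP1low with K8. Each held 1 library, so that the spread between cultures is unknown and differences are described without it. No group without peptide, and no strain, age or number of animals, is given in the sources used here.

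The libraries held 41.5, 40.5, 40.4 and 29.6 M estimated reads in TRP1high with M9, TRP1high with K8, TRP1low with M9 and TRP1low with K8. All 8 markers of CD8 T cells were detected in every library, and Cd4 stood between 0 and 25.5 normalized counts. Transcripts of other cells were present at low levels. The 10 B cell markers summed to 160 normalized counts in TRP1high with M9, where Pax5 and Cr2 were at 0, to 1933 in TRP1high with K8, to 353 in TRP1low with M9, where Cr2 was at 0, and to 993 in TRP1low with K8. The 6 measured myeloid markers of 10 listed summed to 15.3, 22.1, 13.3 and 127.5 normalized counts in the same order of libraries, with Csf1r at 0 in TRP1high with K8 and Fcer1g at 0 in TRP1low with M9. The part of such cells in the results below was not tested. In bulk RNA, fewer cells of a kind and less transcript per cell cannot be told apart.

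Cholesterol is built from acetyl-CoA through mevalonate, farnesyl diphosphate, squalene and lanosterol, and fatty acids are built from the same acetyl-CoA through malonyl-CoA. Both routes are switched on by the sterol regulatory element-binding proteins (SREBPs), transcription factors that the carrier SCAP brings to the Golgi for cleavage when membrane sterol is low and that INSIG proteins hold back in the endoplasmic reticulum when sterol is plentiful. T cells that have been activated and are about to divide raise this synthesis to make new membrane, while liver X receptors respond to oxysterols by inducing the efflux transporters. Values are given as normalized counts or on the deposited log2 scale, and intervals in parentheses are 95% exact (Clopper-Pearson) intervals of a ratio that cover counting error only. A gene is called 2-fold apart where its values differ by that much after 1 is added to each, provided that 1 of the libraries compared reaches 10 normalized counts.

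The TRP1low library with K8 held the least transcript for most of these genes. It was the lowest of the 4 libraries for 26 of the 34 genes, where it was the lowest for 31.6% of the 16102 genes tested. Since the list was chosen with earlier results of these data known, shares of all genes here and below serve as description only. Among the 9221 genes that averaged 200 normalized counts or more, a limit chosen after seeing the data, it was the lowest for 31.05%, and among the 32 members past that limit it was the lowest for 25. The other 8 members were lowest in TRP1high with M9 (Me1, Acaca and Elovl6), in TRP1high with K8 (Idi1, Hsd17b7 and Ebp) or in TRP1low with M9 (Scap and Abcg1). Relative to the average of the remaining 3, the median member stood at 0.27 in TRP1high with M9, 0.29 in TRP1high with K8 and 0.11 in TRP1low with M9, and at -0.66 in TRP1low with K8, on the log2 scale. The same medians over all genes lay between -0.01 and 0.04. The B cell marker sum was higher with K8 than with M9 in both receptors, at 1933 against 160 in TRP1high and 993 against 353 in TRP1low. The myeloid marker sum was highest in TRP1low with K8. The part of these cells in the low values of that library was not tested.

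**Figure D1:**
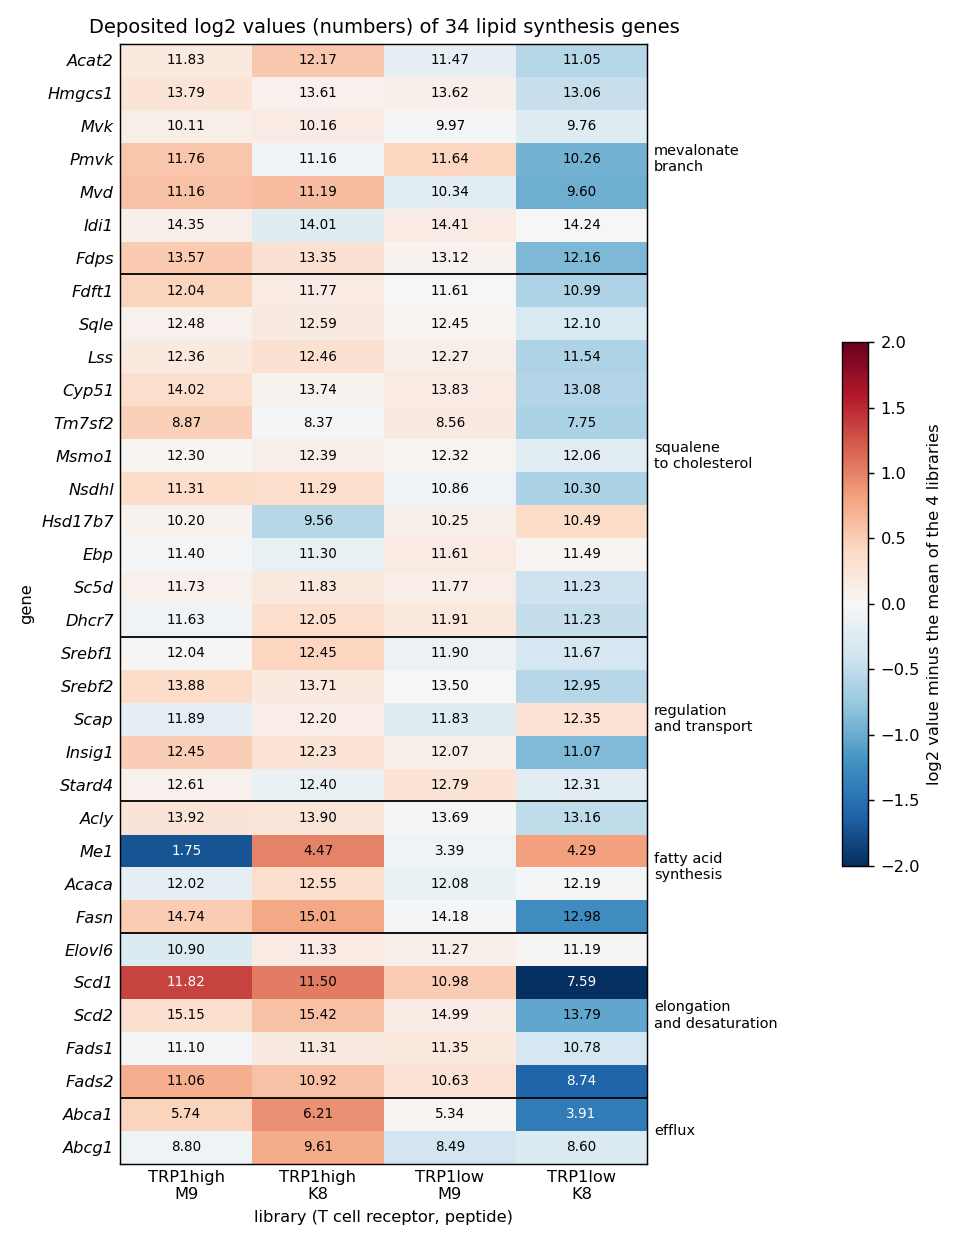
Deposited log2 values of the 34 genes (numbers) in the 4 libraries, ordered by role, with the colour giving the value minus the mean of the 4 libraries. The column of TRP1low with K8 is the lowest for 26 genes, Scd1 having the deepest gap at 7.59 against 10.98 to 11.82 in the other libraries.

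Of the mevalonate branch, 6 of 7 enzymes were lowest in TRP1low with K8. Hmgcs1, which condenses acetoacetyl-CoA with acetyl-CoA and commits carbon to the branch (chromosome 13, 119690379 to 119708260, mm10), had normalized counts of 14139 with M9 and 12503 with K8 in TRP1high cells, and 12559.5 with M9 and 8537 with K8 in TRP1low cells. The first 3 libraries lay within a narrow band and the fourth below it. Mvd, the mevalonate diphosphate decarboxylase (chromosome 8, 122433601 to 122443422), had 2281 with M9 and 2337 with K8 in TRP1high cells, and 1297 with M9 and 776 with K8 in TRP1low cells. Both TRP1high libraries were above both TRP1low libraries, and TRP1high was 1.76-fold higher (1.64 to 1.89) with M9 and 3.01-fold higher (2.75 to 3.31) with K8. Fdps, the farnesyl diphosphate synthase that feeds both sterols and protein prenylation (chromosome 3, 89093588 to 89101959), had 12170.5 with M9 and 10428 with K8 in TRP1high cells, and 8917 with M9 and 4569 with K8 in TRP1low cells, and it was 1.95-fold higher (1.87 to 2.03) with M9 in TRP1low cells, a little under the 2-fold limit. Pmvk, the phosphomevalonate kinase (chromosome 3, 89454541 to 89469013), was the sterol enzyme with the widest gap between peptides in TRP1low. It had normalized counts of 3461 with M9 and 2281 with K8 in TRP1high cells, and 3194 with M9 and 1229 with K8 in TRP1low cells, and the M9 library held more in both receptors, 1.52-fold higher (1.44 to 1.60) in TRP1high and 2.598-fold higher (2.41 to 2.804) in TRP1low.

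Acat2, the cytosolic thiolase that joins 2 acetyl-CoA units, had normalized counts of 3645 with M9 and 4596 with K8 in TRP1high cells, and 2827 with M9 and 2125 with K8 in TRP1low cells. It was 2.16-fold higher (2.04 to 2.29) in TRP1high with K8 than in TRP1low with K8, but 43.7% of the 31-base stretches in its annotated transcripts also occur in those of its paralogue Acat3, so that its value is uncertain. Mvk, the mevalonate kinase, had a range of only 0.39 on the log2 scale over the 4 libraries. Idi1, the isopentenyl diphosphate isomerase, departed from the other enzymes of the branch. Its normalized counts were 20879 with M9 and 16456 with K8 in TRP1high cells, and 21833 with M9 and 19366 with K8 in TRP1low cells, and the lowest library was TRP1high with K8.

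Of the 11 enzymes that make squalene or lead from it to cholesterol, 9 were lowest in TRP1low with K8, with none 2-fold apart in any single comparison. Sqle, the squalene epoxidase that is a rate-limiting step of this stretch (chromosome 15, 59315077 to 59331192), had normalized counts of 5725 with M9 and 6151 with K8 in TRP1high cells, and 5589 with M9 and 4389 with K8 in TRP1low cells. With M9, TRP1high and TRP1low were level within counting error, at a ratio of 1.02 (0.987 to 1.06), and TRP1low with K8 was the lowest library. Fdft1, the squalene synthase, stood at 12.04 and 11.77 on the log2 scale with M9 and K8 in TRP1high, and at 11.61 and 10.99 in TRP1low. Cyp51, the lanosterol demethylase, stood at 14.02 and 13.74 in TRP1high and at 13.83 and 13.08 in TRP1low, again with M9 given before K8. Lss, the lanosterol synthase, stood at 12.36, 12.46, 12.27 and 11.54 in the same order. All 3 had the same shape, with the TRP1low library of K8 the low point.

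The sterol ring-modifying enzymes Tm7sf2, Nsdhl, Msmo1 and Sc5d had the same low point, with log2 differences between M9 and K8 in TRP1low of 0.81, 0.56, 0.27 and 0.54. Dhcr7, which reduces the last double bond on the way to cholesterol, had normalized counts of 3176 with M9 and 4254 with K8 in TRP1high cells, and 3849.7 with M9 and 2399 with K8 in TRP1low cells. The M9 library was 1.34-fold lower (1.28 to 1.403) in TRP1high and 1.605-fold higher (1.52 to 1.70) in TRP1low. Hsd17b7, a keto-sterol reductase, ran against the rest. It had normalized counts of 1177 with M9 and 755 with K8 in TRP1high cells, and 1217 with M9 and 1439 with K8 in TRP1low cells, so that TRP1high with K8 was the low library and TRP1low with K8 the high one. Ebp, the sterol isomerase, was nearly level, with a range of 0.31 on the log2 scale.

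Of the 5 members that regulate or carry sterol, all but Scap were lowest in TRP1low with K8. The 8 related regulators outside the member list did not share this. In that library 1 of them was lowest and 5 were highest, against 31.6% and 31.2% of all genes. Srebf2, which encodes the SREBP that mainly drives sterol genes (chromosome 15, 82147181 to 82205379), had normalized counts of 15089 with M9 and 13426 with K8 in TRP1high cells, and 11619 with M9 and 7903 with K8 in TRP1low cells. TRP1high was 1.299-fold higher (1.27 to 1.33) with M9 and 1.699-fold higher (1.65 to 1.75) with K8. Srebf1, which encodes the SREBP isoforms that mainly drive fatty acid genes (chromosome 11, 60199089 to 60222581), had 4197 with M9 and 5587 with K8 in TRP1high cells, and 3831 with M9 and 3266 with K8 in TRP1low cells. Its highest library was TRP1high with K8, which was 1.71-fold higher (1.63 to 1.795) than TRP1low with K8. Insig1, itself an SREBP target that retains SCAP (chromosome 5, 28071363 to 28078662), had normalized counts of 5602 with M9 and 4795 with K8 in TRP1high cells, and 4288 with M9 and 2147 with K8 in TRP1low cells. It was 2.23-fold higher (2.11 to 2.37) in TRP1high with K8, and its log2 difference between M9 and K8 in TRP1low was 0.998, just under the 2-fold limit. Stard4, a sterol carrier protein that is also an SREBP target, had a range of 0.49 on the log2 scale. Scap differed from the other 4, with 11.89 and 12.20 on the log2 scale with M9 and K8 in TRP1high, and 11.83 and 12.35 in TRP1low, so that the TRP1low library of K8 was its highest. Insig2, the paralogue of Insig1, was named after its values were seen because it ran against it, with normalized counts of 616 with M9 and 548 with K8 in TRP1high cells, and 635 with M9 and 1316 with K8 in TRP1low cells. With K8 it was 2.401-fold lower (2.16 to 2.67) in TRP1high, and in TRP1low it was 2.07-fold lower (1.87 to 2.297) with M9.

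Promoter windows from RefSeq (GRCm38.p6), from 250 bases before to 50 after a start site, were held for 26 of the 34 genes, in 33 windows. The motifs searched, 3 in all, were read on both strands. They were the sterol regulatory element TCACNCCAC, the CCAAT box CCAAT, which NF-Y binds beside SREBPs, and the GC box GGGCGG, which Sp1 binds. The sterol regulatory element in that spelling was in 1 of 33 windows (3.03%), against 1.24% of all 32851 windows. The CCAAT box was in 63.6% of the member windows, against 37.4% of all windows, and the GC box in 75.8%, against 35.7%. The table of all windows includes genes not expressed in T cells, and a match describes the letters only. The windows of 4 genes are printed below. All 4 genes were lowest in TRP1low with K8, so the windows do not span the responses seen here. Hmgcs1 holds the sterol regulatory element, Insig1 and Fasn have CCAAT boxes and Insig1 has 3 GC boxes, and Fads2, one of the widest-ranging members, has 1 GC box and no CCAAT box. Capitals mark the motif matches, and in Fasn a pair of CCAAT matches on opposite strands overlap by 2 bases.
Hmgcs1 (chr13:119690101-119690400, plus strand): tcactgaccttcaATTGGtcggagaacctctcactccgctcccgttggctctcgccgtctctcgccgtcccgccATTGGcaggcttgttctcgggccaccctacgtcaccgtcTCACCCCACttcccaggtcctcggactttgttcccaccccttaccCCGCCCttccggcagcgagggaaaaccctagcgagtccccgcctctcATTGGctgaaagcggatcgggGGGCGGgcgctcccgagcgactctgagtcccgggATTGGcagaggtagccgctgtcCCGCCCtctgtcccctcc
Insig1 (chr5:28071162-28071461, plus strand): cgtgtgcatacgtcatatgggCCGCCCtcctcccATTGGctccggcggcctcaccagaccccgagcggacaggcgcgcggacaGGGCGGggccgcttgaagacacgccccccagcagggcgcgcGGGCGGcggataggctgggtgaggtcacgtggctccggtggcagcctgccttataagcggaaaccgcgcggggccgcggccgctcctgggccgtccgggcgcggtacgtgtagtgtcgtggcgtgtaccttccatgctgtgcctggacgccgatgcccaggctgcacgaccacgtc
Fasn (chr11:120824498-120824797, minus strand): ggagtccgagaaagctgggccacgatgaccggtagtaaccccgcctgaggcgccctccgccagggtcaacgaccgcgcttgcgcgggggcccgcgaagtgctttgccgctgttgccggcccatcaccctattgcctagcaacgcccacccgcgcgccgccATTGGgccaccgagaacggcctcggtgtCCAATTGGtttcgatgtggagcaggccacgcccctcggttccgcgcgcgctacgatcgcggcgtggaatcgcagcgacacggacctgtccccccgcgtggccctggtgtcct
Fads2 (chr19:10101454-10101753, minus strand): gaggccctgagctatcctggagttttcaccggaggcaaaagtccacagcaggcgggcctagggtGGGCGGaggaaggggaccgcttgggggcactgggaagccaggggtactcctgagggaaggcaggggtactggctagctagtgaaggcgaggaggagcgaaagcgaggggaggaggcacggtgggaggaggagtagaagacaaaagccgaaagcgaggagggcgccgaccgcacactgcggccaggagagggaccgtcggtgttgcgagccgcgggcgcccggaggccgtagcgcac
In Hmgcs1 the sterol regulatory element starts 137 bases before the start site, and CCAAT boxes on the minus strand start 237, 176 and 45 bases before it, with another at base 11 after it.

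Of the 4 enzymes that make palmitate or supply its precursors, Fasn had the largest gap among those with more than a few reads. Fasn, the fatty acid synthase (chromosome 11, 120805846 to 120824547), had normalized counts of 27303 with M9 and 32991 with K8 in TRP1high cells, and 18623 with M9 and 8106 with K8 in TRP1low cells. TRP1low with K8 stood far below the other 3. With K8, TRP1high was 4.07-fold higher (3.96 to 4.18), and in TRP1low the M9 library was 2.298-fold higher (2.23 to 2.37). In TRP1high the direction was the other way, and the M9 library was 1.21-fold lower (1.19 to 1.23). Acly, the ATP citrate lyase that makes cytosolic acetyl-CoA for both routes (chromosome 11, 100476353 to 100528000), had 15496 with M9 and 15308 with K8 in TRP1high cells, and 13205 with M9 and 9139 with K8 in TRP1low cells. The TRP1high libraries were level, at a ratio of M9 to K8 of 1.01 (0.990 to 1.04), and in TRP1low the M9 library was 1.44-fold higher (1.403 to 1.49).

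Acaca, the acetyl-CoA carboxylase that makes malonyl-CoA and so commits carbon to fatty acids (chromosome 11, 84129672 to 84401651), did not share this shape. It had normalized counts of 4148 with M9 and 6016 with K8 in TRP1high cells, and 4329 with M9 and 4666 with K8 in TRP1low cells, and the highest library was TRP1high with K8, 1.29-fold higher (1.24 to 1.34) than TRP1low with K8. With M9 it was 1.45-fold lower (1.39 to 1.51) in TRP1high. Me1, the malic enzyme that makes cytosolic NADPH, was barely detected, with normalized counts of 2.37 with M9 and 21.2 with K8 in TRP1high cells, and 9.48 with M9 and 18.6 with K8 in TRP1low cells. These values rest on 2 and 21 estimated reads in TRP1high with M9 and K8 and on 9 and 14 in TRP1low. It was the 1 member past the 2-fold limit in TRP1high, where the M9 library was 8.94-fold lower (2.59 to 93.2).

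Among the desaturases, Scd1 had the widest range of all 34 genes, at 4.23 on the log2 scale. Scd1, a stearoyl-CoA desaturase that makes monounsaturated fatty acids (chromosome 19, 44394455 to 44407879), had normalized counts of 3616 with M9 and 2896 with K8 in TRP1high cells, and 2016 with M9 and 191 with K8 in TRP1low cells. Its TRP1low library of K8 rested on 140 estimated reads and lay an order of magnitude under the other 3. With K8, TRP1high was 15.1-fold higher (12.8 to 18.04), and with M9 it was 1.79-fold higher (1.697 to 1.896). Scd2, the isoform of many lymphoid and neural tissues (chromosome 19, 44293674 to 44306864), had 36383 with M9 and 43736 with K8 in TRP1high cells, and 32574 with M9 and 14182 with K8 in TRP1low cells. It was 3.08-fold higher (3.02 to 3.15) in TRP1high with K8 and 2.297-fold higher (2.25 to 2.35) with M9 in TRP1low, and in TRP1high the M9 library was 1.202-fold lower (1.19 to 1.22). Between the paralogues, 5.18% of the 31-base stretches of Scd1 transcripts occur in those of Scd2, and 4.63% of those of Scd2 in Scd1.

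Scd2 was the more abundant of the pair in every library when set per length. Per kb of annotated exon, Scd2 had normalized counts of 6659 with M9 and 8004 with K8 in TRP1high cells, and 5961 with M9 and 2596 with K8 in TRP1low cells. Scd1 had 739 with M9 and 592 with K8 in TRP1high cells, and 412 with M9 and 39.1 with K8 in TRP1low cells per kb. Fads2, the desaturase that starts polyunsaturated fatty acid synthesis (chromosome 19, 10062765 to 10101746), had normalized counts of 2137 with M9 and 1941 with K8 in TRP1high cells, and 1578 with M9 and 425 with K8 in TRP1low cells. It was 4.56-fold higher (4.04 to 5.16) in TRP1high with K8 and 3.71-fold higher (3.28 to 4.21) with M9 in TRP1low, and the TRP1high libraries differed by a ratio of 1.10 (1.04 to 1.17). Its neighbour Fads1, which acts later in the same route, had a smaller range of 0.56 on the log2 scale, with the same low library. Elovl6, which elongates palmitate, was 0.43 apart at most, and its lowest library was TRP1high with M9.

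**Figure D2:**
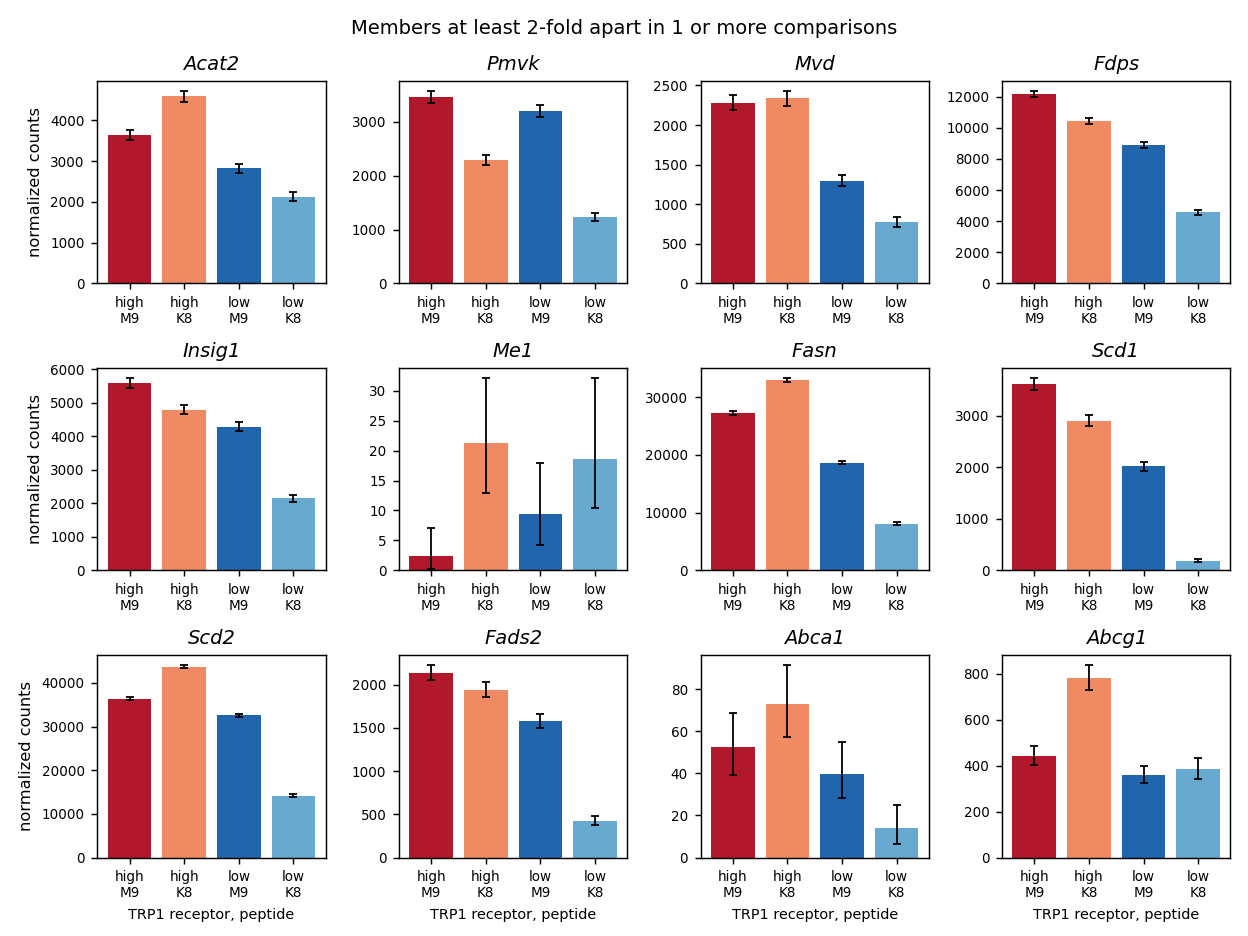
Normalized counts in each library (bars, linear axis from 0) of the 12 members at least 2-fold apart in at least 1 of the 4 comparisons between libraries, with 95% exact Poisson intervals that cover counting error only. The bar of TRP1low with K8 is the lowest for 10 of the 12, the exceptions being Me1 and Abcg1.

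Of the efflux transporters, which export sterol and phospholipid and are induced by liver X receptors, Abca1 had its low point in the same library as most synthesis genes and Abcg1 did not. Abca1 (chromosome 4, 53030787 to 53159895) was at a low level, with normalized counts of 52.5 with M9 and 72.9 with K8 in TRP1high cells, and 39.5 with M9 and 13.98 with K8 in TRP1low cells. The order of its libraries was that of Fasn and Scd2, and it was 2.83-fold higher (1.42 to 6.55) with M9 in TRP1low and 5.21-fold higher (2.74 to 11.6) in TRP1high with K8, on 10 reads in TRP1low with K8. In TRP1high, the ratio of M9 to K8 was 0.720 (0.496 to 1.04), an interval that spans 1. Abcg1 (chromosome 17, 31057675 to 31117988) had 443 with M9 and 782 with K8 in TRP1high cells, and 359.7 with M9 and 386 with K8 in TRP1low cells. The library that stood apart was TRP1high with K8, which was 2.03-fold higher (1.77 to 2.33) than TRP1low with K8, while in TRP1high the M9 library was 1.76-fold lower (1.57 to 1.98).

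For the comparison of peptides, the question is how stimulation by M9 differed from that by K8 within each receptor. In TRP1high cells the members were near level. The median log2 difference of M9 minus K8 was -0.04, against -0.02 for all genes. Of the members, 16 were above 0 and 18 below, where 45.8% of all genes were above 0. None of the 34 was at least 2-fold higher, where 5.14% of all genes were, and 1 (Me1) was lower by that much, where 4.73% of all genes were. In TRP1low cells 29 members were above 0 and 5 below, where 51.8% of all genes were above 0, and the median was 0.56, against 0.02 for all genes. In that receptor 6 members (Pmvk, Fasn, Scd1, Scd2, Fads2 and Abca1) were at least 2-fold higher with M9, where 7.67% of all genes were, and none was at least 2-fold lower, where 7.43% of all genes were. Among the genes averaging 200 normalized counts or more, where fewer pass 2-fold, 5 of 32 members were higher in TRP1low, against 4.24% of the genes.

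By role, in TRP1low, 17 of the 18 sterol enzymes were above 0, with a median of 0.56, but only Pmvk was 2-fold apart. Of the 9 fatty acid enzymes, 7 were above 0, also with a median of 0.56, and 4 were 2-fold apart, up to 3.39 for Scd1. In TRP1high the median was 0.06 for the sterol enzymes, with 10 of 18 above 0, and -0.27 for the fatty acid enzymes, with 3 of 9 above 0. The regulators had medians of 0.17 in TRP1high and 0.49 in TRP1low.

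**Figure D3:**
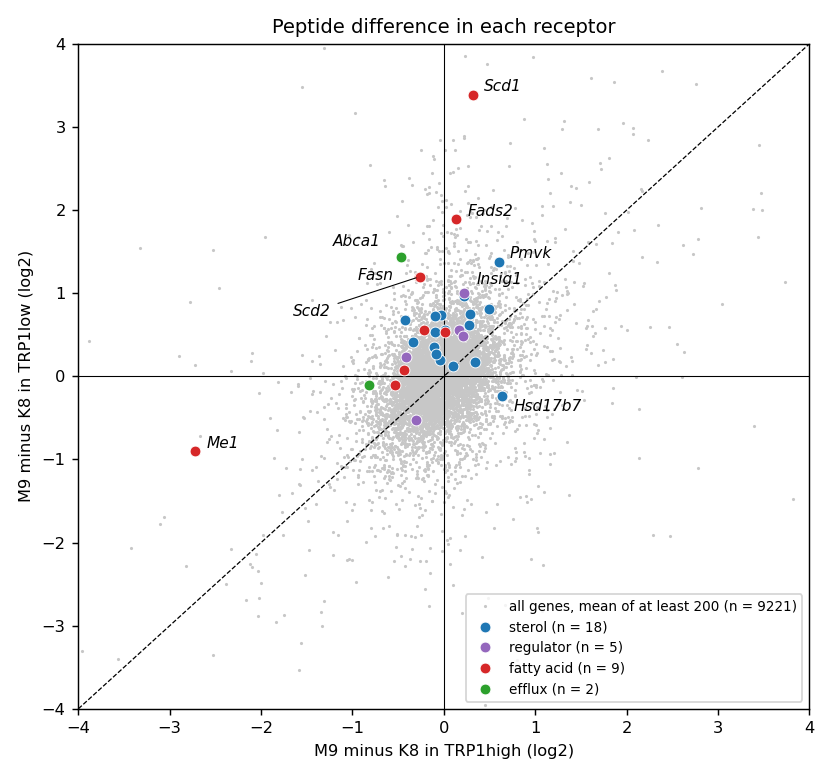
Log2 difference of M9 minus K8 in TRP1high (horizontal axis) and in TRP1low (vertical axis) for the 34 members, coloured by role, over the 9221 genes averaging 200 normalized counts or more (grey), of which 27 lie beyond the axes at 4. Most members lie above the dashed line of equal differences and near 0 on the horizontal axis, with Scd1 at 0.32 and 3.39 and Fads2 at 0.14 and 1.89.

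For the comparison of receptors, the question is how TRP1high cells differed from TRP1low cells under the same peptide. With M9 the receptors were close. The median log2 difference of TRP1high minus TRP1low was 0.15, against -0.03 for all genes. Of the members, 23 were above 0 and 11 below, where 46.9% of all genes were above 0. No member was at least 2-fold higher or lower in TRP1high, where 7.37% of all genes were higher and 5.58% were lower. With K8 the median was 0.75, against -0.0017 for all genes. Here 30 members were above 0 and 4 below, where 49.1% of all genes were above 0. In that comparison 10 members (Acat2, Mvd, Fdps, Insig1, Fasn, Scd1, Scd2, Fads2, Abca1 and Abcg1) were at least 2-fold higher in TRP1high, where 10.6% of all genes were, and none was at least 2-fold lower, where 8.35% were. Among the genes averaging 200 normalized counts or more the share was 8.17%, against 9 of 32 members. By role, 3 of 18 sterol enzymes, 1 of 5 regulators, 4 of 9 fatty acid enzymes and both efflux genes were among the 10. All 9 fatty acid enzymes were above 0.

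Both comparisons that stood out share the TRP1low library of K8, so they are not independent of each other. The remaining comparisons, M9 against K8 in TRP1high and TRP1high against TRP1low with M9, do not use that library.

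The peptide difference in TRP1high minus that in TRP1low was below 0 for 31 of the 34 members, with a median of -0.59, against -0.06 for all genes. Of all genes, 45.5% were above 0. Dhcr7, Me1, Fasn, Scd1, Scd2, Fads2 and Abca1, 7 members in all, were at least 2-fold lower on this scale, where 9.68% of all genes were, and none was at least 2-fold higher, where 9.07% were. The median was -1.47 for the fatty acid enzymes and -0.46 for the sterol enzymes. Scd1 had the largest value at -3.07, and Fads2 stood at -1.75. Abca1 at -1.90 and Me1 at -1.82 rest on few reads. With a pseudocount of 10 in place of 1, Abca1 was at -1.45 and Me1 at -0.78, which ends the call of Me1 and leaves 6 members. The 3 members above 0 were Hsd17b7 (0.88), Scap (0.22) and Idi1 (0.17). With 4 libraries this difference has no error and no test.

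**Figure D4:**
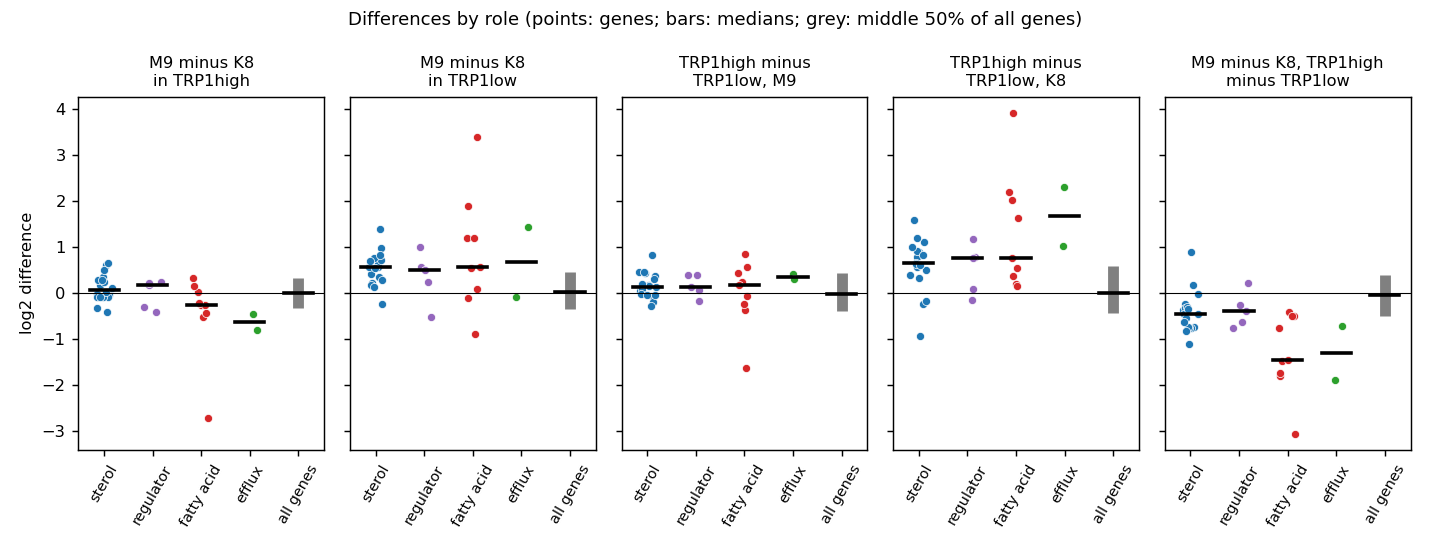
Log2 differences of the members by role (points) in the 4 comparisons between libraries and for the difference of the peptide differences, with the median of each role (black bars) and the median and middle 50% of all 16102 genes (grey). The medians of every role lie above the all-gene median in TRP1low for M9 minus K8 and with K8 for TRP1high minus TRP1low.

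The additive model of receptor and peptide, the only fit with a residual, called no gene. It has 1 residual degree of freedom, the disagreement of the 2 pairs of libraries, and does not measure the spread between cultures. For the peptide over both receptors, limma with Benjamini-Hochberg adjustment called 0% of the 16102 genes, while 1342 genes but none of the 34 members had an unadjusted p under 0.05, and the lowest adjusted p of a member was 0.61. For the receptor over both peptides it again called 0% of all genes. Here 2044 genes had an unadjusted p under 0.05, among them 1 member, Mvd, which was higher in TRP1high with both peptides by a mean log2 difference of 1.202 (SE 0.31, limma adjusted p = 0.39).

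Of 55 related lipid genes listed by role, 52 were measured, of which 24 (46.2%) were lowest in TRP1low with K8, against 31.6% of all genes. These were 5 of 7 uptake genes, 9 of 14 fatty acid genes and 5 of 6 genes listed under triglyceride and phospholipid synthesis. The fatty acid list includes Pcyt2, an enzyme of phospholipid synthesis, and the triglyceride and phospholipid list includes Plin2, a lipid droplet coat protein. The others were 2 of 7 sterol genes, 1 of 8 regulators, 2 of 8 oxidation genes and 0 of 2 esterification genes. Over the 52 genes, the median log2 difference of M9 minus K8 was -0.05 in TRP1high and 0.03 in TRP1low. In TRP1high, 3.85% were at least 2-fold higher and 9.62% lower, against 5.14% and 4.73% of all genes. In TRP1low, 5.77% were higher and 9.62% lower, against 7.67% and 7.43% of all genes. For TRP1high minus TRP1low, the median was -0.09 with M9 and 0.17 with K8. With M9, 1.92% were higher and 5.77% lower, against 7.37% and 5.58% of all genes. With K8, 11.5% were higher and 11.5% lower, against 10.6% and 8.35% of all genes. Vldlr, a lipoprotein receptor, had 48.7 and 22.1 normalized counts with M9 and K8 in TRP1high, and 81.3 and 0 in TRP1low. With M9 it was 2.21-fold higher (1.31 to 3.84) in TRP1high, and in TRP1low it was at least 19.8-fold higher, against a floor of 3 reads in the K8 library. Mylip, a liver X receptor target that marks lipoprotein receptors for degradation, was at least 2-fold apart in all 4 comparisons, with normalized counts of 26.9 with M9 and 79.4 with K8 in TRP1high cells, and 72.2 with M9 and 196 with K8 in TRP1low cells. It was lower with M9 in both receptors and lower in TRP1high with both peptides, and so highest in the library where Abca1, another such target, was lowest.

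Rxra, the partner of liver X receptors, had normalized counts of 310.1 with M9 and 719.99 with K8 in TRP1high cells, and 573 with M9 and 2093 with K8 in TRP1low cells. Like Mylip it was lower with M9 in both receptors, 2.32-fold lower (2.03 to 2.66) in TRP1high and 3.66-fold lower (3.31 to 4.04) in TRP1low. Soat2, which esterifies cholesterol, had normalized counts of 102 with M9 and 258 with K8 in TRP1high cells, and 71.3 with M9 and 174 with K8 in TRP1low cells. It was 2.53-fold lower (2.0 to 3.21) with M9 in TRP1high and 2.44-fold lower (1.802 to 3.32) in TRP1low. Idi2, a paralogue of Idi1 whose transcripts share none of its 31-base stretches, was the related gene with the largest receptor by peptide difference, with normalized counts of 139.5 with M9 and 3.99 with K8 in TRP1high cells, and 53.5 with M9 and 134 with K8 in TRP1low cells. The TRP1high value with K8 rests on 4 estimated reads.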

How the data were processed

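The deposited values are log2 normalized counts per the file headers, with 1 file for each library. Undoing the log2 and subtracting 1 left low values that clustered at multiples of a single step per library, from which the scale was taken to be log2(estimated count / size factor + 1). The submitters' processing notes name Salmon 0.8.2, DESeq2 1.20.0 and the build mm10, without settings, annotation or filters.

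The step (0.990, 0.998, 1.05 and 1.37 normalized counts in TRP1high with M9, TRP1high with K8, TRP1low with M9 and TRP1low with K8) was taken as the worth of 1 read and gave the estimated reads. Between 50.7% and 56.4% of values up to 50 lay within 0.01 of a whole read, so no count model was run. Reads were rounded for intervals, and the floor was 3 reads per library. Genes averaging 1 normalized count or more were tested, which kept 16102 genes and all 34 members. A gene counted as 2-fold apart on the log2(value + 1) scale with at least 10 normalized counts in 1 library. Folds printed for genes leave out the added 1. limma 3.58.1 in R 4.3.3 (trend and robust off, Benjamini-Hochberg, 0.05) fitted the additive model and was tested on simulated data. Positions and exon lengths are from GENCODE M21 (mm10), and promoters from RefSeq. Every member is accounted for, and those 2-fold apart in a comparison, the main regulators and the committed steps are given by library. Of the related genes, those 2-fold apart under both receptors or both peptides are named. The level of 1 B cell marker on its own is not reported here. The members and lists were chosen with earlier results of these data known. Alternatives were another pseudocount, count minimum, fold, scaling, filter and eBayes trend.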

Additional observations from a re-analysis of the deposited data

Results flagged for a closer look

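The peptide differences had opposite signs in the 2 receptors for 15 of the 34 members, against 39.5% of all genes. Of these, 4 members were also at least 2-fold apart between receptors, against 11.1% of all genes, so that the count in both directions is near the background. All 4 were in the lower direction, where 5.71% of all genes had opposite signs and were at least 2-fold lower. The difference in TRP1high minus that in TRP1low was -1.10 for Dhcr7 (-0.42 in TRP1high and 0.68 in TRP1low, log2 of M9 minus K8), -1.47 for Fasn (M9 1.21-fold lower (1.19 to 1.23) in TRP1high and 2.298-fold higher (2.23 to 2.37) in TRP1low), -1.47 for Scd2 (M9 1.202-fold lower (1.19 to 1.22) in TRP1high and 2.297-fold higher (2.25 to 2.35) in TRP1low) and -1.90 for Abca1 (-0.47 in TRP1high and 1.44 in TRP1low). Each direction rests on 1 library a group, and the difference was not tested. For Abca1, the counting interval in TRP1high spans no difference.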

How the results depend on the processing

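No paired analysis was possible because each group holds 1 library, so that no replicate numbers pair samples and no replicate could be left out. The additive model sets the peptides side by side over the receptors, not over replicates. At a limit of 1.5-fold, 2 members were higher and 2 lower with M9 in TRP1high (all genes 10.1% and 9.54%), 14 higher and 1 lower with M9 in TRP1low (13.9% and 13.1%), 2 higher in TRP1high with M9 (14.1%), 21 higher and 1 lower in TRP1high with K8 (17.5% and 15.8%), and 1 higher and 17 lower for the difference of the peptide differences (14.6% and 16.5%). With a count minimum of 50, 0 members were lower with M9 in TRP1high, since Me1 no longer counted. Scaled to equal totals, the median with M9 in TRP1low was 0.494. With the eBayes trend, limma called 5 genes for the peptide and 260 for the receptor, and with a pseudocount of 10 it called 32 for the receptor, with 0 members among them in each case. Under the alternatives run, 0 of 72 values of single members reversed. Only members already 2-fold apart were scored, and the scaling shifts were far smaller than that. A pseudocount cannot turn the sign of a difference between 2 libraries, so this count says little. In all, 83 of 97 summary values were scored as unchanged. Counts had to stay within 1.5 times, medians within counting error, and limma counts had to be equal. Every member passes the filter on low values, so the 2-fold counts without that filter could not change, and the 83 overstates the stability. The equal-median scaling of the limma fits and the limit of 200 normalized counts were chosen after seeing the data. Depth limits Me1 and Abca1, and the lack of replicates limits every comparison.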

Other observations

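The related genes included 8 of fatty acid oxidation (Cpt1a, Cpt2, Acadm, Acadl, Acadvl, Hadha, Hadhb and Slc25a20). All 8 were above 0 in the receptor by peptide difference, where 45.5% of all genes were. Their median was 0.26, against -0.46 for the 18 sterol enzymes, of which 2 were above 0, -1.47 for the 9 fatty acid enzymes, of which none was, and -0.06 for all genes. The middle 50% of all genes ran from -0.495 to 0.382, and the 8 ran from 0.083 to 0.401. None of the 8 was at least 2-fold apart on that scale. For M9 minus K8 their median was 0.15 in TRP1high and -0.14 in TRP1low. Acadm, the medium-chain acyl-CoA dehydrogenase, had normalized counts of 1003 with M9 and 1109 with K8 in TRP1high cells, and 1791 with M9 and 2313 with K8 in TRP1low cells and was 2.09-fold lower (1.93 to 2.25) in TRP1high with K8. The 6 genes listed under triglyceride and phospholipid synthesis were Gpam, Agpat2, Lpin1, Dgat1, Dgat2 and Plin2, the last a lipid droplet coat protein and not an enzyme. Their medians for M9 minus K8 were -0.20 in TRP1high and 0.604 in TRP1low, with none 2-fold apart in either receptor. Acsl4, which activates polyunsaturated fatty acids, had normalized counts of 7492 with M9 and 6218 with K8 in TRP1high cells, and 8084 with M9 and 1896 with K8 in TRP1low cells, with TRP1low with K8 the lowest library. These lists are small, each value is from 1 library, and no difference between lists was tested.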
